A study of Rattus norvegicus with 12 samples.

Results

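The genes described are 8 members and relatives of the Fos and Jun family that the arrays measure, Fos, Fosb, Fosl1, Fosl2, Jun, Jund, Atf3 and Batf. They were chosen by name: every probe whose gene name in the scanner files is one of these symbols was taken, which gave 9 probes for 8 of the 26612 gene names on the array. Junb is not analysed here. RNA came from the cervix of 12 adult female Sprague-Dawley rats, killed either on day 21 after breeding (D21), shortly before birth, or when non-pregnant (NP) and in proestrus, and each rat gave 1 array. In every group the rat was perfused with saline and the cervix dispersed into single cells with collagenase and DNAse. Cells of 3 D21 and 3 NP rats were then frozen as whole cervix. Cells of 3 other D21 and 3 other NP rats were incubated with the ED1 antibody, which binds macrophages (Mφs), and then with magnetic beads, and the cells left in the supernatant were frozen as Mφ-depleted cervix. The age of the rats in weeks is not given in the sources used here.

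Fos and Jun proteins carry a basic leucine zipper, through which they pair with each other, and the pairs bind DNA as the transcription factor AP-1. Most of the genes are immediate-early genes: their transcripts are scarce in resting cells, rise within minutes of a growth factor, cytokine, stretch or stress signal without new protein synthesis, and decay quickly. Fos, Fosb, Fosl1 (Fra-1) and Fosl2 (Fra-2) form AP-1 only with a Jun partner, whereas Jun and Jund can also pair with themselves. Atf3 is a stress-induced relative that can repress transcription, and Batf is a relative best known from lymphocytes and dendritic cells. In the myometrium of the pregnant uterus, AP-1 is known for its part in switching on genes of contraction near term.

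The promoters of 5 of the 8 genes (Fosb, Fosl1, Fosl2, Jund and Batf) could be read from RefSeq on the GRCr8 assembly. Of the genes whose window ends at the start of the gene model, Fosl1 and Jund are shown as genes that were lower in whole than in Mφ-depleted D21 cervix, and Batf as one that was not called in any comparison. Each sequence is the 250 bases before the start, 5′ to 3′ on the strand of the gene.
Fosl1, chr1:212183635-212183884, plus strand: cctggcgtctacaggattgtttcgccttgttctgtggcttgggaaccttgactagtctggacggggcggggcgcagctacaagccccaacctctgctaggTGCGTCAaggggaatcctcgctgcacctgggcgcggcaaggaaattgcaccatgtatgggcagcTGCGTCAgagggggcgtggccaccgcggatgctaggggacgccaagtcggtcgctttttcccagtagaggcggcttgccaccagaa
Jund, chr16:18769772-18770021, minus strand: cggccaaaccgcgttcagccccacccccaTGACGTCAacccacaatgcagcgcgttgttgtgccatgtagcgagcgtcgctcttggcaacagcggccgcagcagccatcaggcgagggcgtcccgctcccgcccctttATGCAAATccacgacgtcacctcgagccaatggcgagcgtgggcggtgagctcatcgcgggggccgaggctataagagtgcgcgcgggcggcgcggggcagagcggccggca
Batf, chr6:111084467-111084716, plus strand: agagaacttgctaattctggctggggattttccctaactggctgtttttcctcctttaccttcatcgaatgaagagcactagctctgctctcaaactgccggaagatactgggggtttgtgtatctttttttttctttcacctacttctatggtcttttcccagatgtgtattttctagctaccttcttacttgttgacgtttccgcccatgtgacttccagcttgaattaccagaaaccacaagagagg
Capitals mark the motifs that were searched on both strands: the cyclic AMP response element TGACGTCA, the AP-1 element TGACTCA, its variant TGCGTCA, which was added after the Fosl1 sequence had been read, and the octamer ATGCAAAT. Jund held the cyclic AMP response element from base -221 to -214 and the octamer from -112 to -105. Fosl1 held TGCGTCA at 2 places, from -150 to -144 and from -86 to -80. Neither Batf nor Fosl2 nor Fosb held any of the 4 motifs in this window, which for Fosb does not end at the start of the gene model, and TGACTCA was in none of the 5. Among windows of the same length before all 33469 starts in the table, 1.59% held TGACGTCA, 4.05% TGACTCA, 1.66% TGCGTCA and 1.56% ATGCAAAT. The windows of Fosl1, Fosl2 and Jund had 62%, 70.4% and 68.4% G and C and those of Fosb and Batf 43.6% and 43.2%, against a median of 51.2% over all windows.

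Signals are given on the log2 scale after subtraction of the log2 75th percentile of the same array, so that 0 is the 75th percentile of that array. Levels of different genes are not compared, since each probe binds its own target differently. The scanner software rated 44.9% to 61.8% of the probes of an array as well above background, and the 75th percentile of intensity ranged from 289.8 (Mφ-depleted NP rat 7) to 1171 (Mφ-depleted D21 rat 1). All whole arrays and 1 Mφ-depleted array of each group (NP rat 7 and D21 rat 4) were scanned on 1 day, and the other 4 Mφ-depleted arrays on 2 other days. The whole D21 arrays shared their slide with whole NP rat 10 alone, so that no slide held both whole and depleted D21 arrays. With slide as a block, the D21 difference with depletion is therefore reached only through NP arrays. Depleted D21 rat 1, alone on its slide, adds nothing to it. Epithelial, smooth muscle and fibroblast markers of the cervix were present on every array (at least 8 of 10 of each list well above background). After depletion 13 of 15 Mφ markers in D21 and 11 of 13 tested in NP rats were called lower. Of all genes 10% and 13.6% were called in this direction. Markers that entered the test only through the whole arrays, such as Adgre1, could only come out lower after depletion. In RNA of mixed cells, fewer cells of a type and less RNA per cell cannot be told apart.

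**Figure D1:**
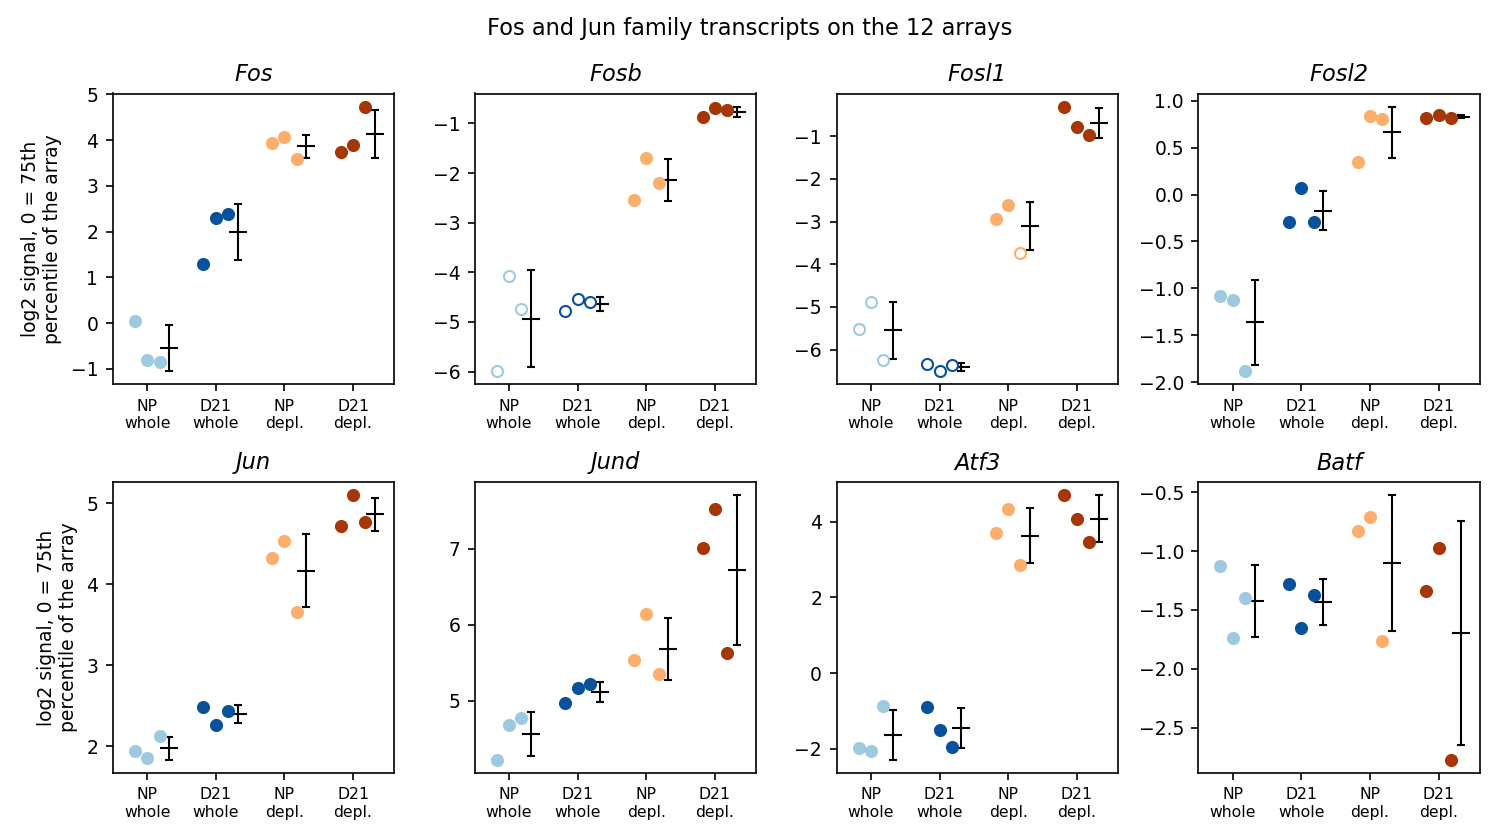
Signal of the 8 genes on the 12 arrays (vertical axis: log2 signal, 0 is the 75th percentile of the array; each panel has its own range). Each point is 1 rat, open where the probe was not well above background, and the bar gives the mean ± SD of 3 rats. The depleted groups lie above the whole groups for every gene except Batf, and for Fos the D21 whole rats (1.30 to 2.38) lie between NP whole rats (-0.85 to 0.05) and both depleted groups.

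Expression of most of the family was lower in whole cervix than in Mφ-depleted cervix. Of the 6 genes that were well above background on every array, 5 were called lower in whole cervix of D21 rats and 4 in NP rats, and 0 were higher. Fosb in both states and Fosl1 in D21 rats were called lower too, which makes 7 of 8 and 5 of 7 tested, but they entered the test only through the depleted arrays and could only come out lower. Called means an unadjusted p below 0.01 from limma with at least a 2-fold change. By this rule 7.71% of all genes tested in D21 and 10.8% in NP rats were lower in whole cervix, and 17.7% and 24.4% were called in either direction. All the called members also had an adjusted p below 0.05 from limma, which 22.4% and 32.8% of all genes had. Whole and depleted rats did not overlap for 7 of 8 genes in D21 and 6 of 7 in NP rats, when 44.5% and 47.1% of all genes showed no overlap. Among genes well above background on every array compared, 7.3% in D21 and 10.2% in NP rats were lower. The median log2 difference of the 6 members, whole minus depleted, was -1.87 in D21 and -2.11 in NP rats, against -0.1 in both for all such genes. The 2 comparisons share no array. The depleted cells alone went through the antibody, washing and bead steps, so that the removal of Mφs and the handling that went with it cannot be told apart.

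Among the Fos proteins, Fos itself was measured well above background on all 12 arrays. Its probe lies at chr6:109561941-109562000 of the rn4 build, plus strand. The log2 signal was -0.81, -0.85 and 0.05 in whole NP rats 8, 9 and 10 and 3.94, 4.07 and 3.58 in Mφ-depleted NP rats 5, 6 and 7. In D21 it was 1.30, 2.30 and 2.38 in whole rats 5, 6 and 7 and 3.75, 3.90 and 4.73 in Mφ-depleted rats 1, 2 and 4. Whole and depleted rats did not overlap in either state, and the order of the group means was NP whole, D21 whole, NP depleted and D21 depleted, with overlap only between both depleted groups. Fos was 21.1-fold lower in whole than in depleted cervix of NP rats (log2 difference -4.40, SE 0.38, adjusted p = 1.2e-05 from limma) and 4.38-fold lower in D21 rats (-2.13, SE 0.38, adjusted p = 0.00415). With slide as a block, which links whole and depleted D21 arrays only through NP arrays, the D21 value was -3.26 (adjusted p = 0.133 from limma). That of NP rats was -4.77 (adjusted p = 5.2e-04 from limma). Within the scan day that held whole and depleted arrays the differences were -4.11 in NP and -2.74 in D21 rats, each against 1 depleted rat. By the methods' t-test, which does not share the spread between genes, the D21 difference was not called.

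Fosb and Fosl1, which also need a Jun partner, were not well above background on any of the 6 whole arrays. In depleted D21 rats 1, 2 and 4 the log2 signal of Fosb (rn4 chr1:78668672-78668731, minus strand) was -0.88, -0.68 and -0.74, and in depleted NP rats 5, 6 and 7 it was -2.54, -1.69 and -2.20. The whole arrays measured between -4.79 and -4.53 in D21 and between -5.99 and -4.08 in NP rats. Fosb was thus detected in all 6 depleted rats and in no whole rat. Removal of Mφs went with a level at least 11.4-fold higher in D21 rats (adjusted p = 1.9e-04, limma) and, in NP rats, at least 3.67-fold higher (adjusted p = 3.9e-04). For these bounds each dim array was given its own signal or, where that was higher, the weakest signal that the scanner software still rated as well above background there. The bounds depend on the background correction: the fitted D21 difference, whole minus depleted, was -1.48 with normexp and -2.31 with slide as a block, both called and both smaller than the bound. The NP call was lost with normexp (log2 difference -0.82) and by the methods' t-test.

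Fosl1 (rn4 chr1:208099035-208099094, plus strand), whose promoter is shown above with the 2 TGCGTCA motifs, had log2 signals of -0.31, -0.79 and -0.97 in depleted D21 rats 1, 2 and 4. In depleted NP rats 5 and 6 it was -2.95 and -2.62, and in NP rat 7 it was -3.73 and not well above background. Whole arrays measured -6.50 to -6.34 in D21 and -6.23 to -4.89 in NP rats, all below the rating. The transcript was therefore detected after depletion in 5 of 6 rats and in no whole rat. Whole D21 cervix had at least 12-fold less of it than depleted cervix (adjusted p = 9.3e-06, limma). With normexp the fitted D21 difference was -1.9 (adjusted p = 0.072, limma), smaller than the bound. In NP rats the bound was at least 1.89-fold lower with 2 of 3 depleted arrays well above background, and was not tested for that reason. Without NP rat 7, Fosl1 entered the test only through the depleted arrays and could only come out lower. It was then called (log2 difference -2.76, adjusted p = 5.0e-04 from limma). The count of 6 of 8 genes lower in that fit therefore includes a gene whose direction was fixed by the filter.

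Fosl2, a Fos protein without the strong activation domain of Fos, was the only gene of the 8 with 2 probes, and they are shown because they differ in one comparison. Both are 60 bases, read 5′ to 3′ in the array files, which give no genome position for them.
Fosl2 probe 1: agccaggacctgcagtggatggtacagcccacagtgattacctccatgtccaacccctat
Fosl2 probe 2: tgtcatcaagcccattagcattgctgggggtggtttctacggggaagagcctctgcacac
Probe 1, the brighter over the 12 arrays, was used as the value of the gene. Its log2 signal was -1.12, -1.88 and -1.08 in whole NP rats 8, 9 and 10 and 0.35, 0.84 and 0.80 in depleted NP rats 5, 6 and 7. In D21 it was -0.29, 0.07 and -0.29 in whole rats 5, 6 and 7 and 0.82, 0.85 and 0.82 in depleted rats 1, 2 and 4. By this probe no whole rat reached a depleted rat of the same state. Fosl2 was 4.07-fold lower in whole cervix of NP rats (log2 difference -2.03, SE 0.26, adjusted p = 1.7e-04 from limma). In D21 rats the log2 difference of -1 (SE 0.26, adjusted p = 0.0229 from limma) lay just past the 2-fold limit.

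Probe 2 read -0.85, -0.61 and 0.56 in depleted D21 rats 1, 2 and 4, and -0.17, 0.04 and -0.28 in whole D21 rats 5, 6 and 7. The groups overlapped, and the D21 log2 difference of probe 2 was 0.16 (SE 0.38, adjusted p = 0.776 from limma). In NP rats probe 2 was lower in whole cervix by -1.40 (SE 0.38, adjusted p = 0.0151 from limma). Both probes were thus called in NP rats, and the D21 call of Fosl2 rests on 1 of 2 probes. The mean of both probes gave -0.42 in D21. Probe 1 was also not called in D21 without depleted rat 2 (log2 difference -0.99), without whole rat 5 (-0.94), without whole rat 7 (-0.94), with normexp (-0.56), quantile normalization (-0.96), slide (-1.48) or scan day (-1.06) as a block, by the methods' t-test, or in the authors' normalized table (-0.99).

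**Figure D2:**
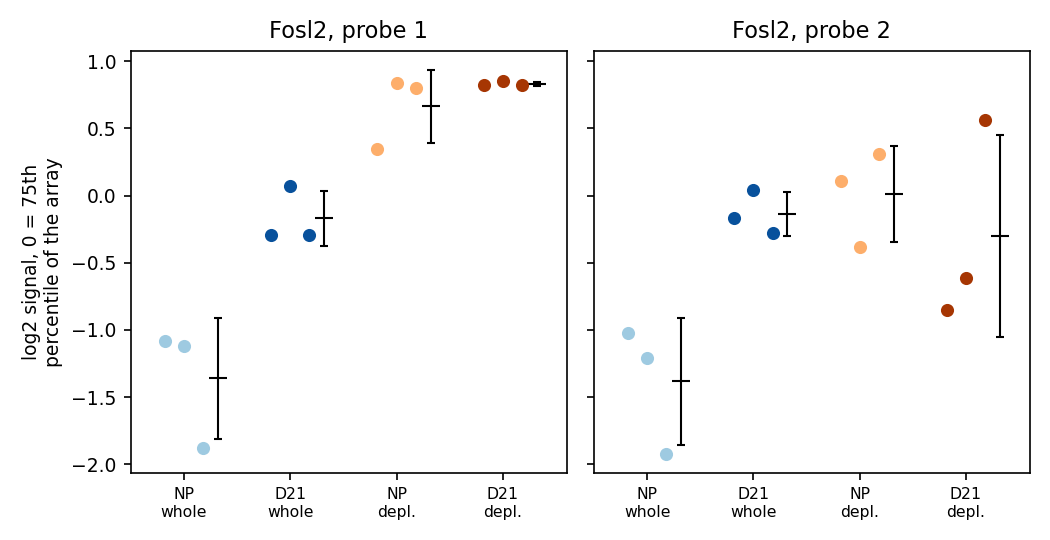
Log2 signal of the 2 Fosl2 probes in each rat (0 is the 75th percentile of the array), with the mean ± SD of 3 rats beside the points. On probe 1 the depleted D21 rats (0.82 to 0.85) lie above the whole D21 rats, and on probe 2 they spread from -0.85 to 0.56 around them.

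Jun (rn4 chr5:115359410-115359469, minus strand), the founding partner of the Fos proteins, had a log2 signal of 1.86, 2.13 and 1.94 in whole NP rats 8, 9 and 10 and of 4.32, 4.53 and 3.66 in depleted NP rats 5, 6 and 7. In D21 it was 2.49, 2.27 and 2.44 in whole rats 5, 6 and 7 and 4.72, 5.10 and 4.77 in depleted rats 1, 2 and 4. Every depleted rat lay above every whole rat. Jun was 5.51-fold lower in whole D21 cervix (log2 difference -2.46, SE 0.25, adjusted p = 1.6e-04 from limma) and 4.57-fold lower in NP rats (-2.19, SE 0.25, adjusted p = 7.8e-05). Within the shared scan day the differences were -2.37 and -1.68.

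Jund (rn4 chr16:19239707-19239766, minus strand), which is known as the steadily expressed Jun protein, was read higher on every depleted than on every whole array of the same state. Its log2 signal was 4.97, 5.17 and 5.22 in whole D21 rats 5, 6 and 7 and 7.01, 7.53 and 5.63 in depleted D21 rats 1, 2 and 4. In NP rats it was 4.68, 4.77 and 4.23 in whole rats 8, 9 and 10 and 5.54, 6.15 and 5.36 in depleted rats 5, 6 and 7. Depleted D21 rat 4 lay within 0.41 of the nearest whole rat while the other 2 depleted rats stood higher. Jund was 3.03-fold lower in whole D21 cervix (log2 difference -1.60, SE 0.42, adjusted p = 0.0231 from limma) and was not called in NP rats (-1.12, SE 0.42, adjusted p = 0.0595), where whole and depleted rats did not overlap. The D21 difference within the shared scan day, whose depleted array is that of rat 4, was -0.51. It was not called with scan day (-0.91) or slide (-0.42) as a block, with normexp (-1.28), by the methods' t-test, in a fit of the 6 arrays compared (adjusted p = 0.061 from limma), without depleted rat 1 (-1.46), without depleted rat 2 (-1.20) or without whole rat 5 (-1.53). In NP rats it was called with quantile normalization (-1.01) and in the fit of 6 arrays (adjusted p = 0.0317 from limma).

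Of the relatives, Atf3 (rn4 chr13:107191691-107191749, minus strand) differed between whole and depleted cervix in both states. Its log2 signal was -0.89, -1.51 and -1.96 in whole D21 rats 5, 6 and 7 against 4.70, 4.08 and 3.47 in depleted D21 rats 1, 2 and 4. In NP rats it was -2.05, -0.88 and -1.97 in whole rats 8, 9 and 10 against 3.71, 4.33 and 2.86 in depleted rats 5, 6 and 7. The lowest depleted NP rat stood 3.74 above the highest whole NP rat. Atf3 was 46.4-fold lower in whole D21 cervix (log2 difference -5.54, SE 0.47, adjusted p = 5.6e-05 from limma) and 38.6-fold lower in NP rats (-5.27, SE 0.47, adjusted p = 1.5e-05). Within the shared scan day the differences were -4.92 and -4.50.

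Batf (rn4 chr6:109817446-109817505, plus strand) was the gene of the 8 that was not called with depletion in either state. Its log2 signal ranged from -1.65 to -1.28 in whole D21, from -1.74 to -1.13 in whole NP, from -2.77 to -0.97 in depleted D21 and from -1.76 to -0.71 in depleted NP rats, so that all 4 groups overlapped. By limma the log2 difference was 0.26 in D21 (adjusted p = 0.688) and -0.32 in NP rats (adjusted p = 0.6). Depleted D21 rat 4 had the lowest value, -2.77, and with scan day as a block Batf was called higher in whole cervix of D21 rats (1.11). The NP difference turned to 0.57 with scan day and to 0.42 with slide as a block.

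**Figure D3:**
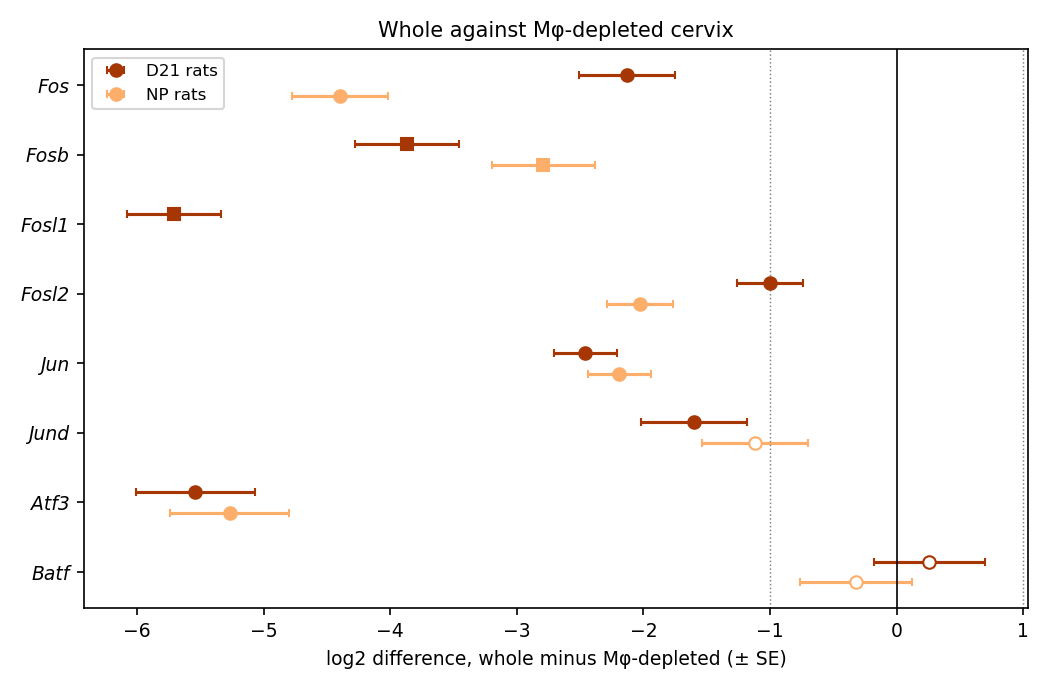
Log2 difference of each gene, whole minus Mφ-depleted cervix, ± SE from limma, in D21 and NP rats. Filled marks were called, squares mark genes with no whole array well above background, whose fold is given in the text as a bound, and dotted lines mark a 2-fold change; Fosl1 was not tested in NP rats. All marks except that of Batf in D21 rats lie left of 0.

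The difference with depletion was larger in NP rats for Fos and Fosl2 and larger in D21 rats for the other 5 genes that were called, by the fitted values. Tested as an interaction in limma over 14572 genes, of which 2.4% passed an adjusted p of 0.05 (0.439% above and 1.96% below 0), 1 of the 8 genes passed. This was Fosl1, with an interaction of -3.27 on the log2 scale (SE 0.52, adjusted p = 0.0111), a value built in part on dim arrays. Of that value, -0.86 is the difference between D21 and NP whole arrays, none of which was well above background, and the rest is the difference between depleted groups. When values not well above background were raised to the lowest signal so rated on the same array, an alternative chosen after seeing the data, the interaction was -2.40 (adjusted p = 0.0527 from limma). It was also not past the threshold with normexp (-1.43) or with slide as a block (-3.21), and was not tested where every array had to be well above background. Whether Fosl1 responded differently in the 2 states is therefore not settled by these arrays.

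Fos had an interaction of 2.26 (SE 0.54, adjusted p = 0.0557 from limma), which did not pass. It passed without depleted D21 rat 4 (2.57, adjusted p = 0.0121) and without whole D21 rat 5 (2.61, adjusted p = 0.0453). The value was 1.51 with slide as a block. For Fosl2 it was 1.02 (adjusted p = 0.171), for Fosb -1.09 (adjusted p = 0.336), and for Jun, Jund, Atf3 and Batf it lay between -0.48 and 0.58.

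The question of what late pregnancy changes was addressed in whole cervix, where Fos and Fosl2 were higher in D21 than in NP rats. Of the 6 genes that could be tested, these 2 were called higher and 0 lower, when 5.38% of all genes tested were called higher, 3.09% lower and 8.47% in either direction. Both had an adjusted p below 0.05 from limma, as had 5.87% of all genes. The median of the 6 log2 differences was 0.49, against -0.08 over all genes. The D21 whole rats lay above the NP whole rats for Fos by 1.25 at the nearest on the log2 scale, and the difference was 5.78-fold (log2 difference 2.53, SE 0.38, adjusted p = 0.00621 from limma). On the slide that held all 3 D21 arrays and 1 NP array it was 1.94, and as a block slide gave 1.94 (adjusted p = 0.15). Fosl2 was higher by 2.28-fold (1.19, SE 0.26, adjusted p = 0.0263 from limma), and its probe 2 gave 1.25 (adjusted p = 0.0797). The Fosl2 call was lost without whole NP rat 9 (0.93), with normexp (0.86), with slide as a block (0.91) and by the methods' t-test.

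The other genes were not called between D21 and NP whole cervix. Jun differed by 0.42 (adjusted p = 0.349 from limma), although the groups did not overlap (NP 1.86 to 2.13, D21 2.27 to 2.49), a state that 44.3% of all genes tested shared. Jund differed by 0.56 (adjusted p = 0.454), also without overlap, Atf3 by 0.18 (adjusted p = 0.855) and Batf by -0.01 (adjusted p = 0.993). Fosb and Fosl1 were below background in both groups, so that no fold is given.

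Epithelial markers moved the same way as Fos in whole cervix. Of 10 epithelial genes tested 7 were called higher in D21 and 0 lower (3 by the methods' t-test and 4 with slide as a block). Of all genes 5.38% were higher and 3.09% lower. The summed signal of the epithelial genes, in units of the 75th percentile, was 130 to 410 in NP and 262 to 425 in D21 whole rats. Krt18, a keratin of simple epithelium, was 6.06-fold higher (log2 difference 2.60, SE 0.45, adjusted p = 0.00968 from limma). Smooth muscle markers moved the other way, with 4 of 10 lower in D21 and 0 higher, a count that changed in 11 of 19 alternatives. The part of either cell type in the Fos difference was not tested.

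In depleted cervix Fosl1 and Fosb, which could not be tested in whole cervix, were called higher in D21 than in NP rats. Fosl1 was 5.31-fold higher by the fitted values (log2 difference 2.41, SE 0.37, adjusted p = 0.00373 from limma). Of the 3 depleted NP arrays 1 was dim, so that the size is uncertain: it was 2.14 on the log2 scale with dim values raised and 1.62 with normexp (adjusted p = 0.129, limma). It was not tested where every array had to be above background. Fosb, measured on all 6 depleted arrays, was higher by 1.38 (SE 0.41), but its adjusted p of 0.0834 from limma did not pass. Of 8 genes tested, these 2 were called higher and 0 lower, against 5.45% of all genes called higher, 2.07% lower and 7.52% in either direction. The median was 0.57 against 0.02 for all genes. Fosl1, however, entered the test only through the D21 arrays, where it was high. Among genes well above background on all 6 depleted arrays, 1 of 7 members was called higher, Fosb, against 3.86% of all such genes. By an adjusted p below 0.05 from limma 1 of the 8 was left, Fosl1, against 4.6% of all genes. D21 and NP rats did not overlap for Fosb, Fosl1 and Jun, and this was the case for 17.1% of all genes tested. The Fosb call held without NP rat 6 alone: leaving out any of the other 5 depleted rats ended it, at 1.18 to 1.44. It was also not called by the methods' t-test, with normexp (1.05) or with scan day as a block (1.45). Fosl1 was called in all 6 cases, at 2.10 to 2.65.

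Fos itself differed by 0.27 (SE 0.38, adjusted p = 0.712 from limma) between depleted D21 and depleted NP rats, and Fosl2 by 0.17. Jun was higher by 0.69 (adjusted p = 0.144) and Jund by 1.04 (adjusted p = 0.182), neither called. Without depleted D21 rat 4, whose Jund signal was the lowest of its group, Jund differed by 1.58 and was called (adjusted p = 0.00635 from limma). Atf3 differed by 0.45 and Batf by -0.59.

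**Figure D4:**
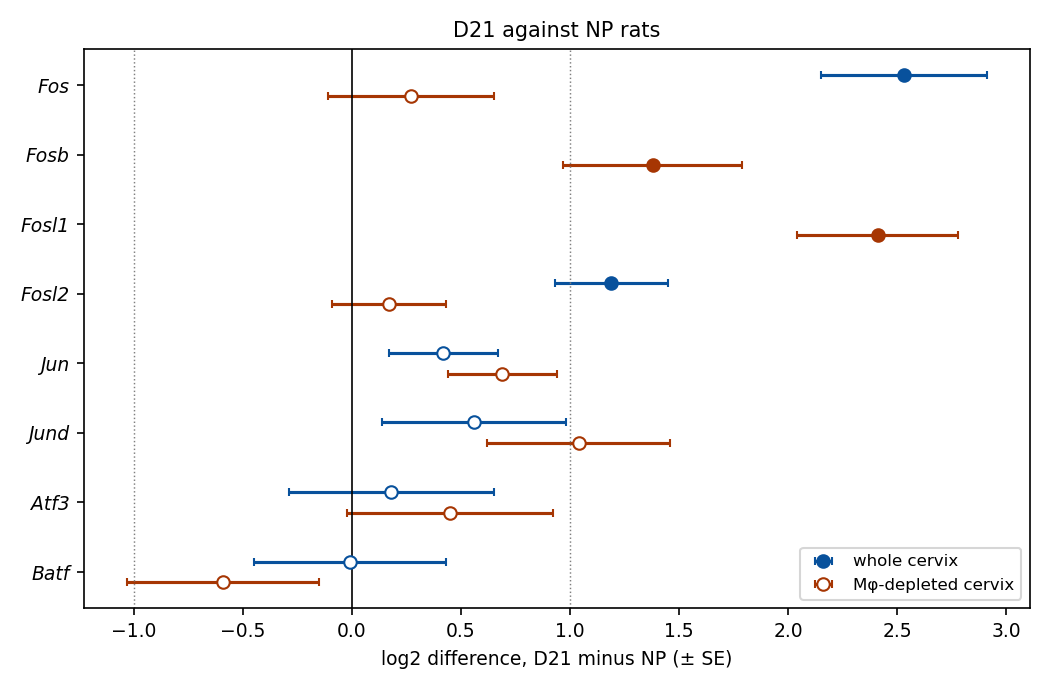
Log2 difference of each gene, D21 minus NP rats, ± SE from limma, in whole and in Mφ-depleted cervix. Filled marks were called, and Fosb and Fosl1 have no mark for whole cervix because no whole array was well above background. Fos and Fosl2 are called in whole cervix, Fosl1 and Fosb in depleted cervix.

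The genes whose pattern over the 12 arrays lay closest to that of Fos were sought among 10938 genes well above background on all arrays, by the mean absolute difference of log2 values centred on the mean of each gene. Dusp1, a phosphatase of MAP kinases and itself an immediate-early gene, was nearest (0.48), followed by Fat2 (0.56), Tfap2a (0.59), Nr4a1 (0.63) and Celsr2 (0.66). Fat2 and Celsr2 are cadherin-like proteins of epithelia, Tfap2a a transcription factor of epithelium, and Nr4a1 an immediate-early nuclear receptor. Of the family, Jun lay at 0.83, Fosl2 at 0.93, Jund at 1.15, Atf3 at 1.28 and Batf at 1.64, the last equal to the median over all genes. The share of genes that lay closer to Fos was 0.283% for Jun, 0.741% for Fosl2, 3.61% for Jund, 8.7% for Atf3 and 50.7% for Batf. The group means of Dusp1 were 0.91 in NP whole, 2.57 in D21 whole, 4.36 in NP depleted and 4.35 in D21 depleted rats. The order of whole below depleted and NP whole below D21 whole is that of Fos. Dusp1 was picked for its closeness to Fos on these same arrays, so that the shared order followed from the choice.

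Other immediate-early genes were examined as a list of 31, of which 29 were on the array. In D21 rats 14 of 23 tested were lower in whole than in depleted cervix and 1 higher, and in NP rats 15 of 22 were lower and 1 higher. Of all genes 7.71% in D21 and 10.8% in NP rats were lower. Any gene of the list that entered only through the depleted arrays could only come out lower. The list's median log2 difference was -1.31 and -1.71. Egr1, a zinc finger factor induced with Fos, was 21.2-fold lower in whole D21 cervix (log2 difference -4.41, SE 0.35, adjusted p = 2.8e-05 from limma), and Csrnp1 12.7-fold lower. Egr4, which entered only through the depleted arrays, was at least 10.8-fold lower. In NP rats Dusp1 was 10.9-fold and Nr4a1 9.48-fold lower. With slide as a block the count lower in D21 rats was 8, and by the methods' t-test 8 in D21 and 7 in NP rats. Between D21 and NP rats 4 of 21 genes were higher in whole cervix, among them Gadd45a (3.33-fold) and Dusp1 (3.16-fold), and 6 of 24 in depleted cervix, among them Egr1 (4.43-fold), with 0 lower in both. The 6 include Egr4, which entered that test only through the D21 arrays, where it was high. By the methods' t-test these counts were 1 of 21 in whole cervix, and 2 higher and 1 lower of 24 in depleted cervix. By limma 5.38% of all genes were called higher in D21 than in NP whole cervix and 5.45% in depleted cervix.

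The wider bZIP family did not move as these genes did. Of 24 other bZIP factors tested, 2 were called higher and 1 lower in whole than in depleted D21 cervix, and 2 higher and 3 lower in NP rats, with median log2 differences of 0.1 and -0.23. Crem, a cyclic AMP-responsive factor, was 2.39-fold higher and Atf2, a partner of Jun, 2.53-fold higher in whole D21 cervix, whereas Mafg, a small Maf protein, was 2.22-fold lower. Jdp2, which pairs with Jun and represses AP-1 sites, was 3.94-fold higher in D21 than NP whole cervix (adjusted p = 0.044 from limma).

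Of the kinases and factors that signal to the family, 31 were tested in D21 and 30 in NP rats, and 4 and 3 were lower in whole cervix with 1 and 0 higher. In either direction 16.1% of the list was called in D21 and 10% in NP rats, no more than the 17.7% and 24.4% of all genes. The MAP kinase kinase kinases Map3k1 (4.55-fold in D21, 5.54-fold in NP) and Map3k8 (5.34-fold, 2.74-fold) and the kinase Rps6ka1 (3.36-fold, 5.26-fold) were lower in both, Map3k8 with 2 of 3 whole NP arrays well above background. Elk1, which switches on Fos with serum response factor, was 3.02-fold higher in whole D21 cervix. Between D21 and NP whole cervix Mapk12 was 3.71-fold and Mapk11 2.71-fold higher in D21 (the latter dim on 1 NP array), and Map2k6 2.45-fold lower.

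Known AP-1 target genes gave 11 tested of 17. Of these, 4 were lower and 0 higher in whole than in depleted D21 cervix, and 2 lower and 1 higher in NP rats. In either direction 36.4% and 27.3% were called, against 17.7% and 24.4% of all genes. By the methods' t-test 1 was lower in D21 rats and 0 were called in NP rats. With normexp 1 was lower and 1 higher in D21 rats, and with slide as a block 1 was lower in each state. With quantile normalization 4 were lower and 1 higher in NP rats. Plaur, the urokinase receptor, was 5.43-fold lower in D21 (adjusted p = 0.0197 from limma), and Cd44, the hyaluronan receptor, 2.62-fold lower in D21 and 3.53-fold lower in NP rats. Timp1, an inhibitor of metalloproteinases, was the gene that was higher in NP rats (2.79-fold). In depleted cervix 5 of 11 targets were higher in D21 than in NP rats, against 5.45% of all genes. Among them were Plaur (6.27-fold, adjusted p = 0.0322 from limma) and Timp1 (3.06-fold, adjusted p = 0.0181). Spp1, osteopontin, was called as well but was well above background on 1 of 3 NP arrays, and no size is given. It is counted in the 5, but it entered the test only through the D21 arrays, where it was high. The number fell to 2 at an adjusted p below 0.05 and to 2 with normexp, and was 1 by the methods' t-test. In whole cervix 1 was called, Hmox1, which was 8.64-fold higher in D21 rats (adjusted p = 0.0192, limma). That is 9.09% of the targets tested, against 8.47% of all genes.

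Some genes of other lists were also lower in whole than in depleted cervix. Against the 7.71% and 10.8% of all genes given above, of 9 heat shock genes 4 were lower in whole cervix in D21 and 3 in NP rats, and Hspa1b, an inducible chaperone, was 27.5-fold and 19.4-fold lower. The median of the list was -0.95 and -0.43, and the number lower in D21 rats was 2 with normexp, quantile normalization or slide as a block. The summed heat shock signal was 150 to 190 in whole and 321 to 475 in depleted D21 rats, and 185 to 249 and 292 to 403 in NP rats. Of 10 epithelial markers, 4 were lower in whole cervix in D21 and 6 in NP rats and 0 higher (the methods' t-test gave 2 in the latter), and their summed signal was 262 to 425 in whole and 543 to 724 in depleted D21 rats and 130 to 410 and 460 to 1020 in NP rats. Krt5, a basal keratin, was 4.30-fold and 7.49-fold lower in whole cervix. The opposite was measured for smooth muscle, where 7 and 10 of 10 markers were higher in whole cervix, and for fibroblasts, with 4 and 9 of 10. Of all genes 10% in D21 and 13.6% in NP rats were higher in whole cervix. Markers that entered only through the whole arrays, such as Lmod1 of smooth muscle, could only come out higher. None of 8 housekeeping genes was called. The part of heat shock genes, of epithelial, smooth muscle or fibroblast cells in the family's differences was not tested.

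**Figure D5:**
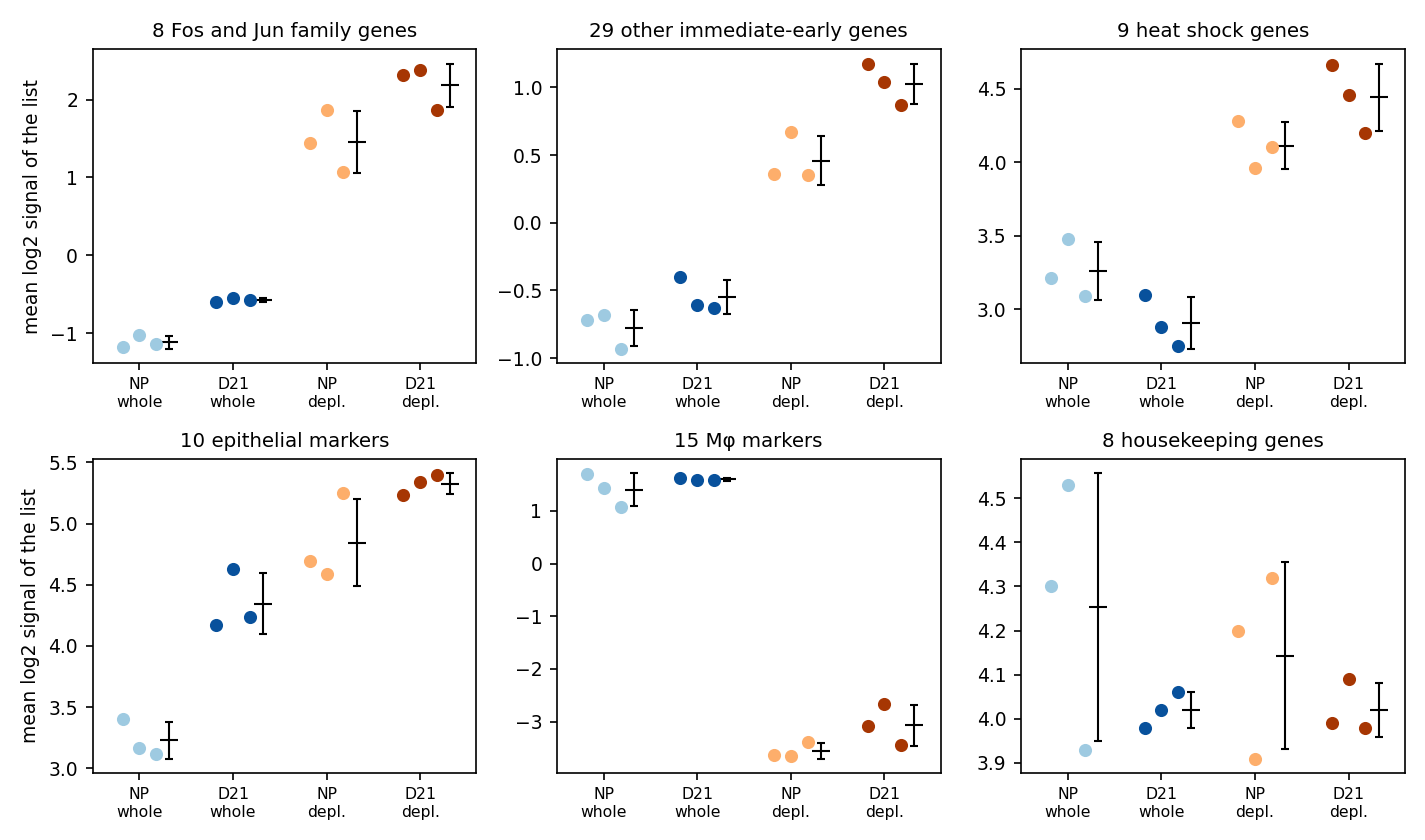
Mean log2 signal of each gene list in each rat (vertical axis, 0 is the 75th percentile of the array; each panel has its own range), with the mean ± SD of 3 rats beside the points. The group means of the Fos and Jun genes, other immediate-early genes, heat shock genes and epithelial markers are higher in both depleted groups, the Mφ markers lie lower, and the housekeeping genes overlap.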

How the data were processed

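RNA of 12 rats, 3 in each of 4 groups taken from the sample labels, was hybridised to 1-colour Agilent rat arrays. The authors deposited spot intensity as Agilent Feature Extraction 9.5.3.1 wrote it, background-subtracted and not normalized between arrays, with 0 or 1 flags for background and outliers, and a table of ratio values, each probe's intensity over the 75th percentile of its array. Positions are those of the files (rn4).

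Here flagged outlier spots (294 to 648 an array) were dropped, spots of a probe averaged, and the log2 75th percentile subtracted. A probe was well above background where at least 0.5 of its spots were so rated. The brightest probe stood for a gene. Names came from accessions matched to RefSeq genes (17328 of 30367 probes) and otherwise from the files. A gene entered a test where each of the 3 arrays of 1 or both compared groups rated it well above background. The fit was made in limma 3.58.1 (R 4.3.3) on all 12 arrays with 1 mean a group and no covariate. Called means p below 0.01 with 2-fold, the threshold of the study's methods, and for the interaction an adjusted p below 0.05. Adjusted p is Benjamini-Hochberg over all genes tested. The code was tested on simulated data. An exact permutation test of 3 against 3 cannot go below 0.1, and the number of arrays limits the precision. Rats are separate animals.

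The 8 members and all lists were chosen with earlier results of these data known. Of each list, at most the 4 genes with the largest change among those called in a comparison could be named, and for Fos the 5 nearest genes. The alternatives tried were the t-test of the study's methods, plain or adjusted, limma at an adjusted threshold or on 6 arrays, normexp (offset 50), quantile normalization, no or a stricter filter on dim probes, the mean of all probes, a block for scan day or for slide, the deposited table (log2 of the value plus 0.01) and leaving out each rat. Figures used Python 3.11.15 and matplotlib 3.10.9.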

Additional observations from a re-analysis of the deposited data

Results flagged for a closer look

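The change of Fosl1 with Mφ removal passed the test of a difference between D21 and NP rats, with an interaction of -3.27 on the log2 scale (SE 0.52, adjusted p = 0.0111 from limma). None of the 6 whole arrays was well above background for Fosl1, and 2 of 3 depleted NP arrays were. The value therefore rests on dim arrays, and -0.86 of it lies between whole groups that were both below background. Leaving out each of the 12 rats gave -3.61 to -2.94, all past the threshold. It did not pass with normexp (-1.43, adjusted p = 0.526 from limma), with slide as a block (-3.21, adjusted p = 0.0927) or with dim values raised (-2.4, adjusted p = 0.0527), and could not be tested where every array had to be well above background.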

How the results depend on the processing

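No paired analysis was possible because the groups compared share no rat numbers in the labels and come from different animals. Between whole and depleted D21 cervix Fos, Jun and Atf3 were lower in whole cervix in every alternative run, and so were Fosb and Fosl1 except with a filter on every array, where they could not be tested. Fos was not called there by the methods' t-test (unadjusted p = 0.0103), and after adjustment of that test Fosb alone was. The count of genes called between D21 and NP whole cervix was 1 by the methods' t-test, 0 after adjustment of it, 1 with normexp and 1 with slide as a block. That between whole and depleted D21 cervix was 4 by the methods' t-test and 1 after adjustment, and that in NP rats 2 after adjustment. Between depleted groups it was 1 by the methods' t-test, 0 after adjustment, 1 with limma at an adjusted p below 0.05, 1 with normexp, 1 with a filter on every array and 1 with a block for scan day. For the interaction it was 0 with normexp, 0 with a filter on every array, 0 with slide as a block and 0 with dim values raised (chosen after seeing the data). Leaving out 1 rat gave 1 to 2 genes between whole groups, 5 to 7 in D21, 5 to 6 in NP, 1 to 2 between depleted groups and 1 to 2 for the interaction.

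Of the called differences, that of Fosl2 between whole and depleted D21 cervix was 0.16 by its second probe. The other changes of direction were of differences that were not called. With normexp these were Batf at 0.01 between whole groups, -0.39 in D21, 0.16 between depleted groups and -0.14 for the interaction, Fosl2 at -0.05 between depleted groups, and the interactions of Atf3 at 0.05 and Jun at 0.00. Batf between whole groups was 0.00 with quantile normalization, and Fosl2 between depleted groups -0.07 with the mean of probes. Batf in NP rats was 0.42 with a block for slide and 0.57 with one for scan day, and the Atf3 interaction 0.22 with slide. With 1 rat left out, the Atf3 interaction ranged from -0.61 to 0.12, Atf3 between whole groups from -0.10 to 0.56, Batf between whole groups from -0.17 to 0.14, Batf in D21 from -0.28 to 0.62, and Fos between depleted groups from -0.04 to 0.45. The dim arrays limit Fosb and Fosl1 to bounds in whole cervix, and the causes of these changes were not tested.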
